A study of Mus musculus with 39 samples.

Results

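The genes described here are 9 interferon-stimulated genes, Ifit1, Ifit2, Ifit3, Isg15, Irf7, Rsad2, Usp18, Oasl2 and Mx1, measured in the subcutaneous fat of C57BL/6J mice. They were chosen by gene name, and every probe that carried one of these names was read: 13 of the 40628 probes, for 9 of the 29411 gene names on the array. Type I interferons are secreted proteins that cells release on sensing viral nucleic acid. They bind a common receptor, and the signal from it acts on a DNA element of the target genes, the interferon-stimulated response element. In adipose tissue, adipocytes, macrophages and endothelial cells can all express these genes, and members of the set normally move together.

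The study followed mice, weaned at 3 to 4 weeks of age and divided into diet groups of 30 animals, by 1-colour Agilent microarrays of total RNA. The low-fat diet group, LFC, drew 10% of its calories from fat and has 10 arrays, and the high-fat, high-sucrose group, HFC, drew 60% of its calories from fat and has 11 arrays. The groups HF5, HF20 and HF75 received the HFC diet with 5, 20 or 75 µg of KAL-1, a botanical formulation in water, and have 6 arrays each. LFC and HFC share the time points Day 6, Day 10, Day 14 and Week 0, called early here, and all 5 diets share Weeks 3, 6, 9, 12, 15 and 18, while Day 1 exists for HFC alone. Each diet has 1 array at each of its time points. The labels do not say whether an array holds the RNA of 1 mouse or of a pool. The errors of the diet comparisons below measure how far a difference between diets varied from 1 time point to the next.

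A level is the log2 of the processed probe intensity minus the log2 of the 75th percentile of the same array, so a level of 0 equals that percentile. Levels were compared only within a probe, since probes differ in brightness for reasons other than RNA amount. Of the 39 arrays, HF75 Week 3 stood apart with the lowest share of spots well above background, 49.3%, and HF20 Week 15 with the highest, 87.8%. HF20 Week 15 also had 4936 spots flagged as outliers, where the next most were 474 in HFC Day 1. The 75th percentile of intensity ran from 107.9 in LFC Week 18 to 1285.3 in HF75 Week 12. For Week 12, the deposited ratio columns named HF5 and HF20 matched the array files of the other diet (r = 0.999 with the names exchanged, 0.663 and 0.666 as labelled, across probes), so these 2 arrays may carry each other's label. All 6 adipocyte markers were well above background on all 39 arrays. In RNA of a whole tissue, fewer cells of a type and less RNA per cell cannot be told apart.

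The promoters are shown first because the response element is the feature by which these genes are normally controlled. RefSeq promoters, 250 bases before to 50 bases after a transcription start on GRCm38.p6, were given for 7 of the 9 genes. The letters GAAANNGAAA, read on both strands (TTTCNNTTTC on the other), stood for the response element, and overlapping matches were counted apart. They occurred in 3.44% of 32851 promoters of this length (3.99% of 27025 genes), and in 4 of the 8 promoters of the 7 genes, 1 in each of 4 genes: Isg15, Rsad2, Ifit3 and Ifit1. The stretches that hold them, with 30 bases to either side, are printed on the strand of the gene, and capitals mark the matches.
Isg15, chr4:156200845-156200926, minus strand: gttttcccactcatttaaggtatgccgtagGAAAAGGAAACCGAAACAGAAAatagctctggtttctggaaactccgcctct
Rsad2, chr12:26456533-26456602, minus strand: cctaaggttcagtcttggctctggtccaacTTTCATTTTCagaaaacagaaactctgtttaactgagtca
Ifit3, chr19:34583343-34583446, plus strand: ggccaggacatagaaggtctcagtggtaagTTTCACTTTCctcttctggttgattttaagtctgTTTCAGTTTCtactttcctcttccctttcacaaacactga
Ifit1, chr19:34640755-34640843, plus strand: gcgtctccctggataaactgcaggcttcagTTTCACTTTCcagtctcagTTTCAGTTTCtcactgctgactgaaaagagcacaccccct

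Isg15 had 3 overlapping matches, Ifit1 and Ifit3 had 2 each, and Rsad2 had 1. The promoters of Irf7, Oasl2 and Ifit2 held no match to these letters in the window. A match is a description of the letters and not of binding.

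Of the 13 probes, 9 stood for the genes (for each gene, the probe with the highest mean level), and none was saturated on any array. These 9 were well above background on 39 of 39 arrays, except those of Irf7 (38) and Mx1 (37). Ifit2 and Rsad2 have further probes, and 4 of their sequences are printed because agreement between probes bears on how the gene's level can be read.
Ifit2, probe P161021: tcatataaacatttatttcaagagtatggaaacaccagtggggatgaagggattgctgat
Ifit2, probe P542388: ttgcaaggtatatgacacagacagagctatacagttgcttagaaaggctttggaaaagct
Rsad2, probe P505132: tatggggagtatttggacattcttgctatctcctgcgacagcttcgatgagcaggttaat
Rsad2, probe P505134: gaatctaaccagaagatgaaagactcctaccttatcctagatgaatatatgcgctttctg

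Across the 39 arrays the 2 Ifit2 probes correlated at r = 0.84 and the 3 Rsad2 probes at 0.87 to 0.94. The 2 Mx1 probes correlated at 0.13 over 38 arrays, and the dimmer of them was well above background on 11 arrays. Thus Ifit2 and Rsad2 varied alike by each of their probes, whereas Mx1 did not.

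Ifit1, Ifit2 and Ifit3 belong to the same gene family, and the protein of Ifit1 binds foreign RNA and blocks its translation. Over Weeks 3 to 18 the level of Ifit1 ran, as lowest, median and highest of 6 arrays, at -0.48, 0.87 and 2.90 in LFC and at 1.75, 2.89 and 3.61 in HFC. It ran at 0.86, 2.22 and 3.39 in HF5, at 0.12, 1.97 and 3.41 in HF20, and at -2.26, 1.61 and 3.31 in HF75. HFC had the highest median of Ifit1 and LFC the lowest, but the ranges of all 5 diets overlapped. Ifit2 had its lowest median in LFC, -1.38, and its highest in HF5, -0.40, and its HFC arrays lay between -1.70 and 0.45. The medians of Ifit3 lay between 1.37 in HF5 and HF75 and 1.92 in HFC. Ifit3 reached its lowest level of all 39 arrays, -1.58, in HF75 Week 15.

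Isg15 encodes a ubiquitin-like protein that is attached to other proteins, and Usp18 the protease that removes it and also damps signalling from the receptor. Isg15 had levels of 0.19 (lowest), 2.08 (median) and 3.55 (highest) in the 6 LFC arrays of Weeks 3 to 18, and of 1.92, 2.92 and 3.67 in HFC. In HF75 its lowest level was -1.64 and its median 2.73. Its order of medians was HFC, HF75, HF5, HF20 and LFC, with every range overlapping the others. Usp18 lay close together in the diets, with medians from 0.13 in HF75 to 0.56 in HF20 and, outside HF75, no level of these weeks below -0.59.

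Irf7 encodes a transcription factor that amplifies interferon production. Its medians over Weeks 3 to 18 were -0.77 in LFC, -0.62 in HFC, -0.46 in HF5, -0.64 in HF20 and -0.69 in HF75, nearer to each other than the arrays within any diet. The highest Irf7 level of all arrays was 1.98 in HFC Day 14.

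Rsad2 encodes viperin, an enzyme that makes a nucleotide which stops viral polymerases, Oasl2 encodes an oligoadenylate synthetase-like protein, and Mx1 a GTPase that traps viral particles. C57BL/6J is known to carry a defective allele of Mx1. Rsad2 ran at -0.67, 2.08 and 4.19 in LFC, at 1.37, 3.09 and 3.93 in HFC and at -2.92, 2.19 and 3.50 in HF75 over the 6 late weeks. Oasl2 had its highest median in HF5, 1.45, and its lowest in HF75, 0.72. Mx1 varied most among the 9 probes, from -6.09 in HF75 Week 3, a reading not well above background, to 4.95 in LFC Week 18. Its median was -3.61 in HFC, the lowest of the 5 diets, against -1.09 in LFC, -0.51 in HF5, -1.04 in HF20 and -1.81 in HF75. In HFC no array of Mx1 exceeded -1.33, but each of the other diets also had arrays inside the HFC range.

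**Figure D1:**
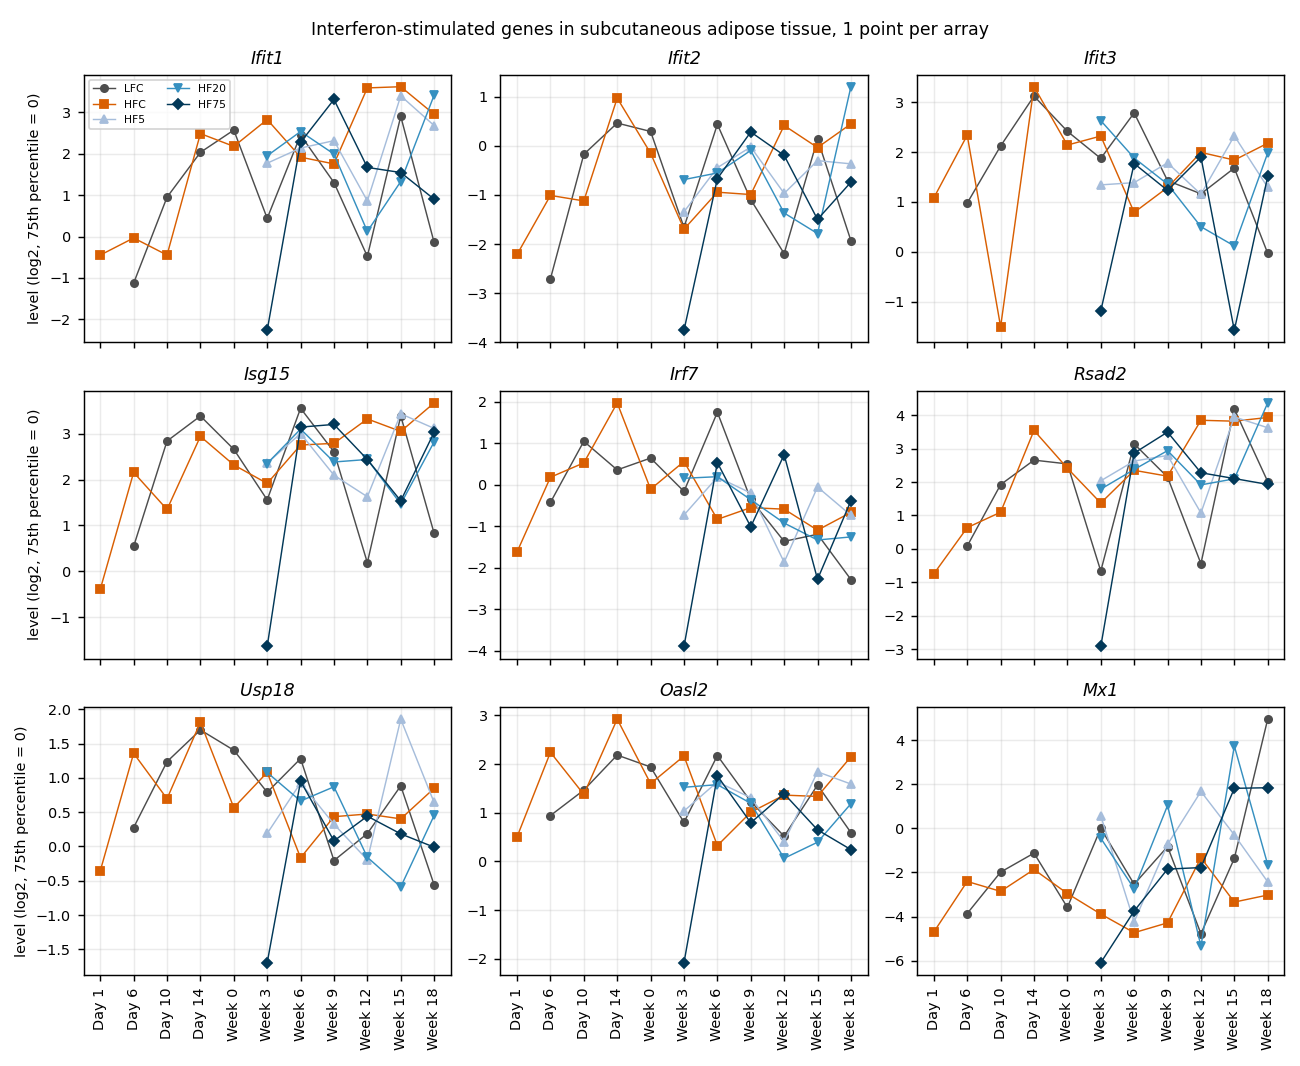
Level of each of the 9 genes (log2 of intensity relative to the array's 75th percentile, vertical axis) at each time point (horizontal axis) in LFC, HFC, HF5, HF20 and HF75, with 1 array per point. HF75 Week 3 has the lowest reading for 8 of the 9 genes (Irf7 and Mx1 not well above background there), and the diets cross each other repeatedly over time.

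The first comparison asked how the HFC diet differed from LFC over their 10 shared time points. Ifit1 averaged 0.99 higher in HFC on the log2 scale (SE 0.49, higher at 7 of 10 time points), Rsad2 0.76 higher (SE 0.46) and Isg15 0.47 higher (SE 0.44). None of the 9 genes passed the test (limma with time point as a block, adjusted p 0.803 to 0.977), where 0% of the 19873 genes tested were called. By this test the differences did not exceed their own spread between time points. Without Week 12 they were 0.65 for Ifit1, 0.37 for Rsad2 and 0.18 for Isg15, and without Week 18 that of Isg15 was 0.21. Mx1 lay 1.56 below LFC in HFC (log2 difference -1.56, SE 0.88, adjusted p = 0.803 in the limma fit, and -0.85 without Week 18), whereas Ifit3 (-0.08), Usp18 (0.05) and Irf7 (0.14) had smaller values, which reached 0.31 for Ifit3 without Day 10 and 0.22 for Usp18 and 0.44 for Irf7 without Week 6. At an unadjusted p below 0.05 limma gave 1165 of all genes and none of the 9, of which Ifit1 came nearest (unadjusted p = 0.0647). The median difference of the 9 genes was 0.31, beside -0.04 over all genes tested. In the same contrast 6 macrophage markers had a median difference of 0.65 (3 at an unadjusted limma p below 0.05, 0 called), 6 lymphocyte markers of -0.96 and 6 skeletal muscle markers of -0.53, and their part in the values of the 9 genes was not tested. With scan day in place of time point as the block, the difference was 0.60 for Ifit1, 0.35 for Rsad2, 0.00 for Ifit2 and Irf7, -0.00373 for Isg15, -0.38 for Ifit3, 0.12 for Oasl2, -0.11 for Usp18 and -2.56 for Mx1, with none called (limma adjusted p 0.240 to 1.00). In this fit the arrays of Day 6 and Week 12 each stood alone on their scan day, so these time points carried no weight. The values are thus those without Day 6 and Week 12, and not values corrected for scan day. The median of the 9 was then 0.00, and it was 0.17 (without Week 18) to 0.55 (without Week 6) with each time point left out. With array quality weights the median turned to -0.11, and the 9 genes, Ifit1, Rsad2 and Mx1 among them, ran only from -0.64 to 0.17.

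Read time point by time point, all 9 genes lay on the same side of the diet contrast at 4 of the 10 time points, Day 6, Day 10, Week 6 and Week 12, and were mixed at the others. At Day 6 all 9 were higher in HFC, by a median of 1.30 in log2, where 52.2% of all genes above background were higher. At Day 10 none of the 9 was higher, with a median difference of -0.87 where 44% of all genes were higher, the lowest such share. Day 14 had 7 of 9 higher in HFC, where 57.8% of all genes were, and Week 0 had 1 of 9, where 46.5% were. The study's methods count weeks from Day 14, so these labels name the same time, and the genes lay on mostly opposite sides there. Week 3 had 7 of 9 higher (47.3% of all genes), but Week 6 had 0 of 9, with a median difference of -1.45 where 45% of all genes were higher. At Week 12 all 9 were higher in HFC, with a median difference of 2.61 where 45.9% of all genes were higher. Week 9 had 5 of 9 higher (49.4% of all genes), Week 15 had 3 of 9 (50% of all genes), and Week 18 had 8 of 9, with a median difference of 1.92 and Mx1 as the exception at -7.98, where 60.1% of all genes were higher, the largest such share of the 10 time points. The LFC array of Week 12 was low, and its mean over the 9 genes, -0.80, was the third lowest of the 39. At Day 6 and at Week 12 the LFC and HFC arrays were scanned on different days, so that diet and scan day cannot be told apart in these differences. With 1 array per diet and time point these counts carry no test, and the 9 genes of 1 array are not replicates.

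Whether the difference between HFC and LFC changed from the early to the late time points was tested as an interaction. Ifit1 averaged -0.06 between HFC and LFC over the 4 early time points and 1.70 over the 6 late weeks, an interaction of 1.76 (SE 0.89, limma adjusted p = 1.00). None of the 9 genes passed, with 0% of all genes called. The interaction of Mx1 was -2.79 (SE 1.68), and -1.73 without Week 18, and that of Usp18 0.16 (SE 0.58). Usp18 differed by -1.45 at Week 6 alone, beside a late mean of 0.12. The median interaction of the 9 was 0.38, and -0.0048 (without Day 10) to 0.88 (without Day 6) with each time point left out. By limma without adjustment, 0 of the 9 and 375 of all genes had p below 0.05.

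KAL-1 was compared with HFC at the same weeks, and the 3 doses share the HFC arrays as control. Ifit1 differed from HFC by -0.58 in HF5, -0.88 in HF20 and -1.53 in HF75 (SE 0.68 each). Rsad2 differed by -0.23, -0.34 and -1.29 (SE 0.68 each), and Ifit3 by -0.19, -0.32 and -1.13 (SE 0.58 each). For these 3 genes the value was more negative at 75 µg than at 5 or 20 µg, and the difference between doses was not tested. Without the HF75 Week 3 array Ifit1 was at -0.88 in HF75, as in HF20, so its order rests on that array, while Rsad2 and Ifit3 kept theirs. Isg15 differed by -0.31, -0.49 and -0.96 (SE 0.59 each) and Oasl2 by -0.09, -0.40 and -0.93 (SE 0.48 each). None of the 9 genes passed the test at any dose (limma adjusted p 1.00 in HF5, 0.997 to 0.998 in HF20 and 0.866 to 0.897 in HF75), with 0% of 21087 genes called at each. Unadjusted limma p values fell below 0.05 for 287, 890 and 1059 of all genes at 5, 20 and 75 µg, among them 1 of the 9, Ifit1 in HF75 (unadjusted p = 0.0328). The median difference of the 9 genes was -0.11 in HF5, -0.32 in HF20 and -0.93 in HF75, beside 0.00, 0.05 and 0.00 over all genes. Without Week 12, Ifit1 differed by -0.15 in HF5 and -0.37 in HF20, Isg15 by -0.03 in HF5 and Rsad2 by 0.28 in HF5, and the median of the 9 was 0.15 in HF5 and -0.025 in HF20. Without Week 3, the HF5 difference was -0.03 for Ifit3 and 0.12 for Oasl2, but -0.46 for Isg15 and -0.41 for Rsad2. In HF20 the lowest single weeks were Week 12 for Rsad2 (-1.935) and Oasl2 (-1.30), and Week 15 for Ifit3 (-1.72) and Isg15 (-1.58). Without the HF75 Week 3 array the median in HF75 was -0.34, and without Week 15 that in HF20 was -0.04. Without the HF20 Week 15 array alone it was -0.0021 in HF20. In HF5, HF20 and HF75 the median was 0.23, -0.07 and -1.04 with scan day as the block. It was 0.19, 0.04 and -0.68 with slide as a random block, and -0.19, -0.03 and -0.43 with array weights. In HF5, HF20 and HF75 the median difference of 6 skeletal muscle markers was 2.14, 1.71 and 2.85, and that of 6 macrophage markers was -0.20, -0.69 and -0.78, with none called and with 2 muscle and 2 macrophage markers at an unadjusted limma p below 0.05 in HF75. Their part in the differences of the 9 genes was not tested. With scan day as the block, Rsad2 turned to 0.23 in HF5 and 0.05 in HF20 and was -1.36 in HF75, and Ifit1 was -0.14, -0.60 and -1.69, with none called.

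The values of HF75 rested in part on its Week 3 array. There all 9 genes were lower than in HFC, where 50.2% of all genes were higher. The 7 genes whose probes were well above background on it differed by -2.06 (Ifit2) to -5.08 (Ifit1), while Irf7 and Mx1 were not well above background there and their differences have no exact size. Without that array the HF75 difference was -0.88 for Ifit1 (SE 0.60), -0.65 for Rsad2, -0.67 for Ifit3, -0.34 for Isg15 and -0.39 for Oasl2, and that of Irf7 turned from -0.52, which includes the reading not above background, to 0.15. At Week 6 all 9 genes were higher in HF75 than in HFC, with a median of 0.98 where 51.9% of all genes were higher, and at Week 15 1 of 9 was (48.8% of all genes). HF5 and HF20 were also above HFC for all 9 genes at Week 6 (49% and 51.3% of all genes), the week in which the shared HFC array was below LFC for all 9. At Week 12, 1 of 9 in HF5 and 0 of 9 in HF20 were above HFC (52.6% and 57% of all genes), and these are the 2 arrays whose labels are in doubt. Scan day differed from that of HFC for HF5 and HF20 at Week 12 and for HF20 and HF75 at Week 6, so diet and scan day cannot be told apart in those counts. Mx1 was not well above background in HF20 at Week 12.

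Mx1 differed from HFC in the other direction, by 2.52 in HF5 (higher at 6 of 6 weeks), 2.53 in HF20 (5 of 6) and 1.80 in HF75 (4 of 6), with an SE of 1.38 each. Without the HF75 Week 3 array, where its reading was not well above background, the HF75 difference was 2.80 (SE 1.36). Without Week 15 it was 1.62 in HF20 and 1.13 in HF75, and without Week 12 it was 3.84 in HF20. With slide as a random block, none of the 9 genes exceeded 1.94 in HF5, 1.15 in HF20 or 1.41 in HF75. Its dimmer probe was not well above background on any of the 6 HF75 arrays or on 5 of the 6 HFC arrays of these weeks, and gives no comparison. Over the doses together its difference was 2.29 (SE 1.13, unadjusted p = 0.0550 and adjusted p = 1.00, limma). With HF5 and HF20 exchanged at Week 12, the Mx1 differences became 1.36 in HF5, higher then at 5 of 6 weeks, and 3.70 in HF20. Under normexp background correction limma called Mx1 in HF20 (difference 2.63, adjusted p = 0.0299), together with 7872 genes in all. For the doses together the 9 genes had a median difference of -0.47 beside 0.02 over all genes, 0% of all genes were called, and 951 had an unadjusted p below 0.05. That median was -0.28 (without Week 3) to -0.77 (without Week 6) with each week left out, and -0.15 with slide as a random block. Across all 5 diets limma's F test called 0% of the 21087 genes, none of the 9, and 369 genes had an unadjusted p below 0.05.

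**Figure D2:**
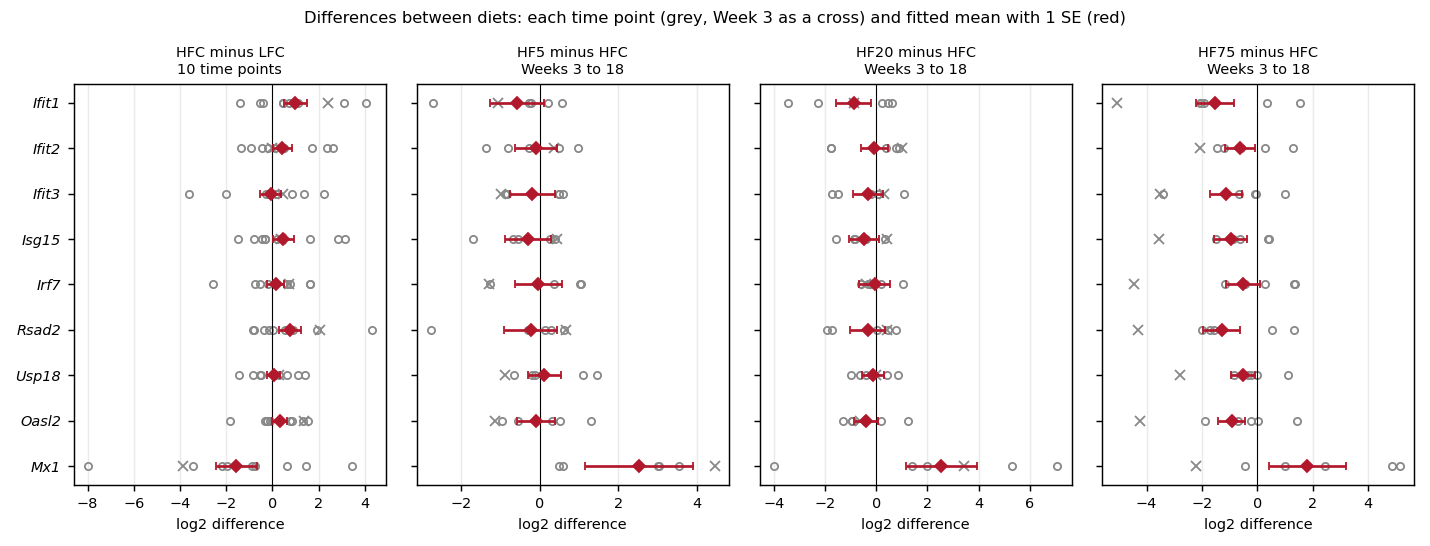
Log2 difference between diets (horizontal axes) for each of the 9 genes (rows), for HFC minus LFC over 10 time points and for HF5, HF20 and HF75 minus HFC over 6 weeks. Grey circles are single time points with Week 3 as a cross, red diamonds the fitted mean and bars 1 standard error, and Ifit1 in HFC minus LFC (0.99, SE 0.49) and in HF75 minus HFC (-1.53, SE 0.68) lies farthest from 0 for its error.

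The weeks themselves were compared with diet as a block over the 30 arrays of Weeks 3 to 18. No scan day held arrays of more than 1 of these weeks, so week and scan day cannot be told apart. Rsad2 passed this test (limma F = 4.47, adjusted p = 0.0480) and the other 8 genes did not (adjusted p 0.235 to 0.880), where 12% of all genes were called. A call of 1 of 9 is close to that share, so it is not particular to these genes. At Week 3 the Rsad2 level was -0.67 in LFC, 1.37 in HFC, 2.04 in HF5, 1.79 in HF20 and -2.92 in HF75. Its mean was 0.32 ± 2.10 at Week 3 (SD, n = 5), 2.67 ± 0.34 at Week 6, 2.71 ± 0.57 at Week 9, 1.74 ± 1.58 at Week 12, 3.23 ± 1.04 at Week 15 and 3.18 ± 1.13 at Week 18. Week 3 was the lowest of the 6 weeks and Week 15 the highest. In a limma fit of all probes, which called 3786 of 29451, the adjusted p was 0.0456 for P670026, the probe that stood for Rsad2. It was 0.0173 for P505134 and 0.0710 for P505132, and these 2 probes were not well above background on HF75 Week 3. Without HF75 Week 3 the adjusted p of Rsad2 was 0.0909 by limma, and the call was lost. It was also lost under normexp background correction, quantile scaling, no filter, slide as a block and array weights (limma adjusted p 0.0550 to 0.0840). The other genes closest to the threshold were Isg15 (adjusted p = 0.235) and Ifit2 (adjusted p = 0.244). Over the 10 time points of LFC and HFC, limma called 0.0554% of the genes and none of the 9 (adjusted p 0.215 for Rsad2 to 0.718 for Oasl2), with 4896 genes of all at an unadjusted p below 0.05.

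**Figure D3:**
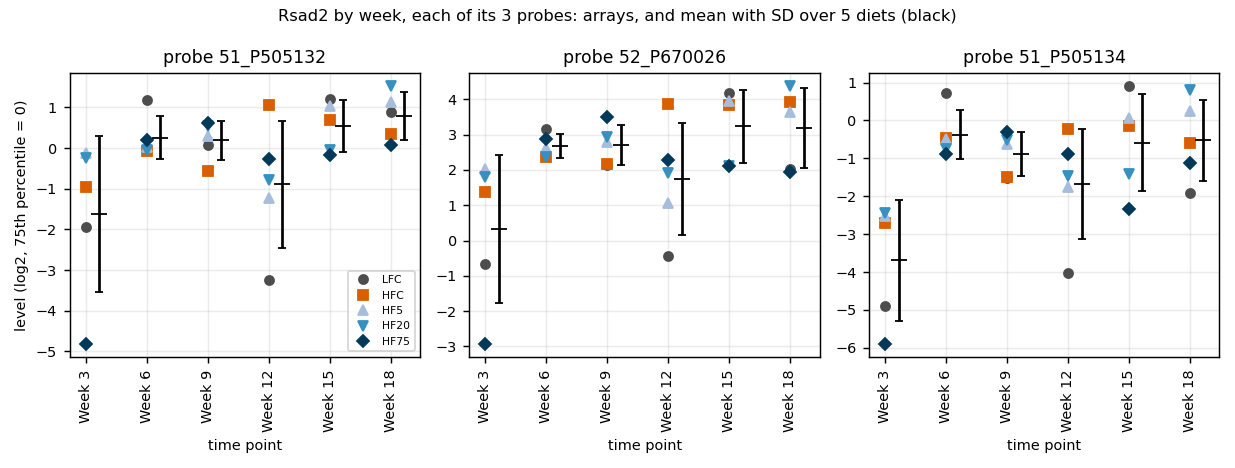
Level of Rsad2 by each of its 3 probes (log2 relative to the array's 75th percentile, vertical axes) at Weeks 3 to 18 (horizontal axes) in the 5 diets, 1 array per point, with the mean and SD over diets in black. Week 3 has the lowest mean by every probe, 0.32 for P670026 in the middle panel, and HF75 is its lowest array, at -2.92.

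HF75 Week 3 had the lowest reading of all 39 arrays for 8 of the 9 genes, of which Irf7 and Mx1 were not well above background there, so that only the other 6 have a measured level as lowest. The readings there were -2.26 for Ifit1, -3.76 for Ifit2, -1.64 for Isg15, -3.90 for Irf7, -2.92 for Rsad2, -1.70 for Usp18, -2.08 for Oasl2 and -6.09 for Mx1, while Ifit3 was at -1.19. The mean over the 9 genes was -2.84, followed by HFC Day 1 at -0.99, LFC Week 12 at -0.80 and LFC Day 6 at -0.59. At the other end were HFC Day 14 at 2.01, HF5 Week 15 at 1.80 and LFC Week 6 at 1.67. Both ends therefore held LFC, HFC and KAL-1 arrays.

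Markers of other cell types also moved at HF75 Week 3. The mean level of 6 skeletal muscle markers was 7.32 there, the highest of the 39 arrays (lowest -4.65 in HFC Week 9), and HFC Day 1 had the next highest, 6.21. The mean of 6 macrophage markers was -1.89 and that of 6 endothelial markers 0.93, each the lowest of the 39 arrays, beside highest values of 2.44 and 4.75. The mean of 6 adipocyte markers was 4.01, within the range of 2.93 to 6.33. All of the 6 muscle markers were well above background on at least some arrays, 2 of them on all 39. HF5 Week 12 had a muscle mean of 5.76 with 8 of the 9 genes below their median over arrays, LFC Day 6 a muscle mean of 4.12 with all 9 below, and HFC Day 6 a muscle mean of 5.03 with 5 of 9 below. The part of tissue composition in the levels of the 9 genes was not tested.

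Over the 39 arrays the mean of the 9 genes correlated with the macrophage mean at r = 0.63 (Spearman rho 0.46), with the endothelial mean at 0.61 (rho 0.37), with the mammary and skin epithelial mean at 0.54 (rho 0.46) and with the muscle mean at -0.60 (rho -0.32). Without HF75 Week 3 and HFC Day 1, the 2 arrays whose mean of the 9 genes was farthest from the median, r was 0.36, 0.39, 0.54 and -0.35. For adipocyte markers r was -0.13 (rho -0.31) and, without these 2 arrays, -0.49. For neutrophil markers r was 0.45 (rho 0.38), and for lymphocyte markers 0.29 (rho 0.43). Markers of plasmacytoid dendritic cells, which make type I interferon in blood, ran from -0.64 for Cox6a2, also a muscle transcript, to 0.49 for Bst2, also an interferon-stimulated gene, so that their mean (r = -0.06) mixes opposite members. These values are descriptions, since both sides of each come from the same 39 arrays and share their scaling. The share of spots well above background correlated with the mean of the 9 genes at 0.16 (rho 0.01).

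**Figure D4:**
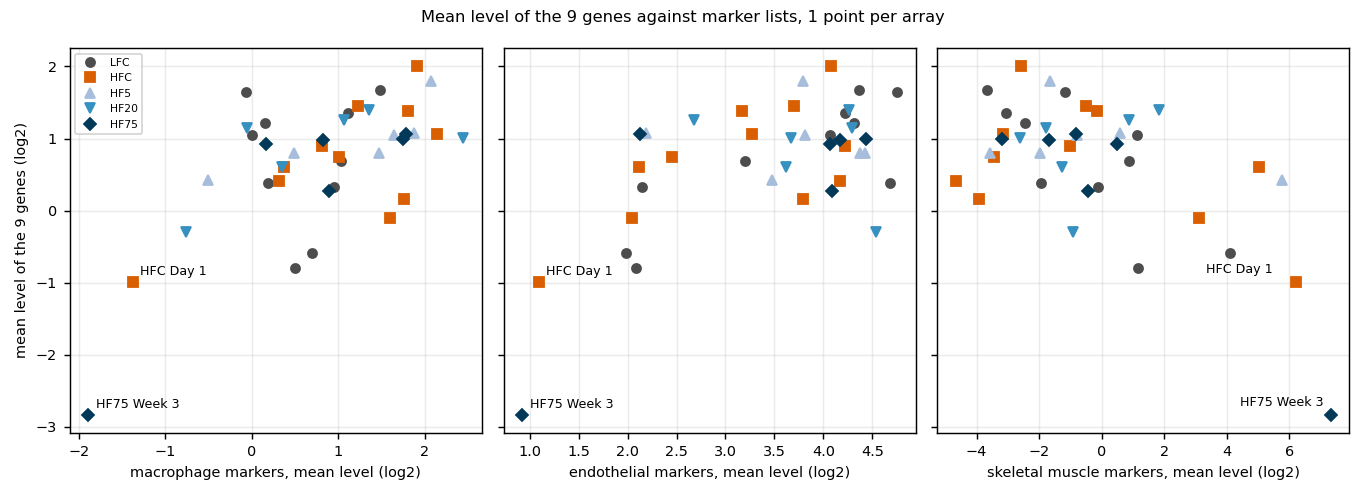
Mean level of the 9 genes (vertical axis) against the mean level of macrophage, endothelial and skeletal muscle markers (horizontal axes, log2 relative to the array's 75th percentile), 1 point per array for 39 arrays, coloured by diet. HF75 Week 3, at -2.84 for the 9 genes, lies at one end of all 3 axes.

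The genes varied together across arrays, with Mx1 as the exception. For the 28 pairs among the other 8 genes r ran from 0.36 (Irf7 and Rsad2) to 0.90 (Usp18 and Oasl2) over 39 arrays. With the mean of each time point subtracted, over the 38 arrays other than HFC Day 1, the same pairs gave 0.62 to 0.92, and without HF75 Week 3 they gave 0.12 to 0.86. Ifit1 and Rsad2 correlated at 0.89. Grouped after their values were seen, Ifit1, Ifit2, Isg15 and Rsad2 gave 0.82 to 0.89 among themselves and Ifit3, Irf7, Usp18 and Oasl2 gave 0.67 to 0.90, whereas pairs across these groups gave 0.36 to 0.69. With time point means subtracted, these groups did not separate, since pairs across them reached 0.78 and pairs within the second went down to 0.74. Mx1 correlated with the other 8 genes at -0.13 to 0.22. Against the mean of the other members, r was 0.85 for Isg15 and Ifit2, 0.81 for Rsad2, 0.78 for Ifit1, 0.77 for Oasl2, 0.69 for Usp18, 0.61 for Ifit3, 0.55 for Irf7 and 0.05 for Mx1. Without HF75 Week 3 it was 0.34 for Irf7, -0.15 for Mx1 and 0.51 to 0.81 for the other 7. The arrays of a pair are shared, as are the diets, the time points and the scaling of each array, and no p is given.

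**Figure D5:**
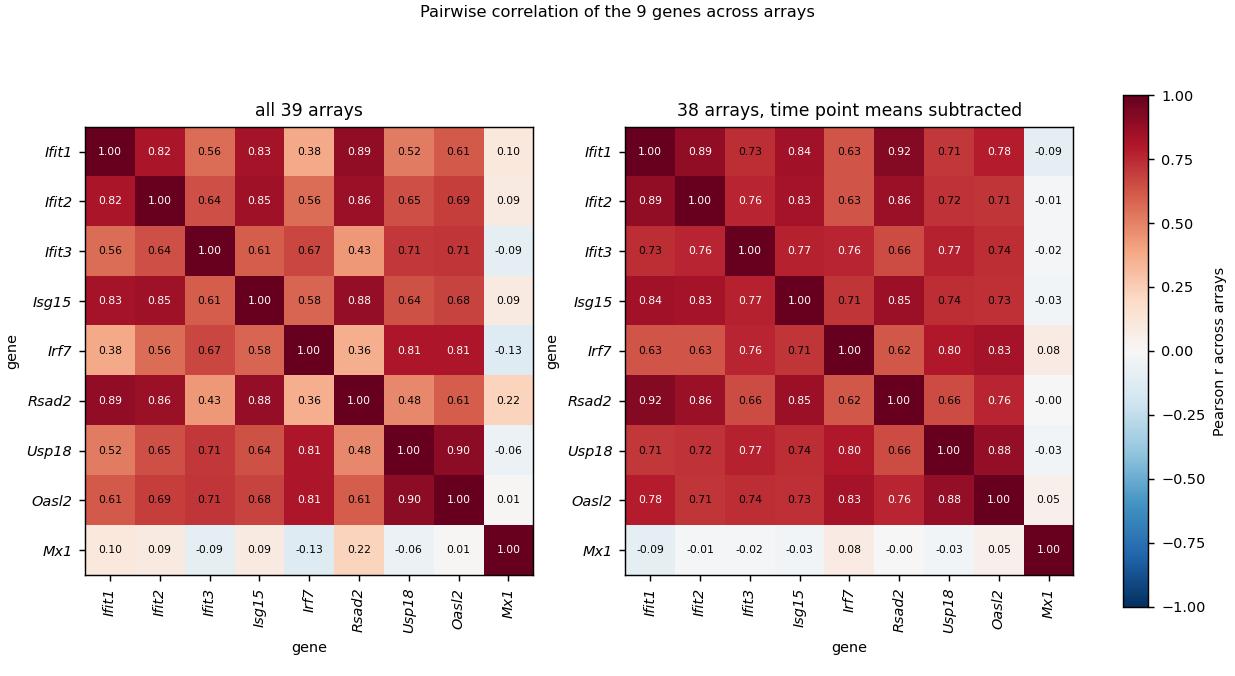
Pearson r between the levels of each pair of the 9 genes, as coloured matrices over all 39 arrays (left) and over the 38 arrays that share a time point, with time point means subtracted (right). On the left the 28 pairs without Mx1 lie between 0.36 and 0.90 and those with Mx1 between -0.13 and 0.22, and on the right the 28 pairs lie between 0.62 and 0.92.

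By likeness to the mean of the 9 genes over the 39 arrays, the 10 nearest of 21122 other genes were Gm9106 and Ifi47 (r = 0.89 each), Mx2, Marcksl1 and Cxcl10 (0.88 each), Ifitm3 and Gm6577 (0.87 each), Myd88 (0.86), Ripk1 and LOC635039 (0.85 each). Without HF75 Week 3 these 10 gave r of 0.74 to 0.83. Over all genes the median r was 0.01 and 10.8% exceeded 0.5. Ifi47 encodes an interferon-inducible GTPase, Mx2 a relative of Mx1, Cxcl10 a chemokine for T cells, Ifitm3 a membrane protein that hinders viral entry and Myd88 an adaptor of Toll-like receptors. The response element letters were present in the promoters of 4 of the 6 among these genes that had one.

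The rest of the pathway was read from listed genes. Of the ligands, 1 of 9 type I interferon genes had r above 0.5 with the 9 genes: Ifnb1, at 0.63. Its level ran from -8.78 in LFC Week 12 to 4.73 in HFC Week 15, and its probe was well above background on 33 arrays. Ifng, the type II interferon, had r = 0.65. Of receptors and signalling genes 13 of 24 exceeded 0.5 (median 0.54), and of nucleic acid sensors 6 of 14 did (median 0.46, highest Ifi204 at 0.78, lowest Mavs at -0.50). Among other interferon-stimulated genes 41 of 56 exceeded 0.5 (median 0.60, highest Mx2), and among GTPases and chemokines induced by interferon-gamma 13 of 16 did (median 0.68, highest Ifi47, lowest Ciita at 0.31). Over all genes 10.8% exceeded 0.5, close to the share of the type I interferon genes (1 of 9). These r include HF75 Week 3, which had the lowest level of Ifi204, Mx2, Ifi47 and Ifng, but not of Ifnb1, Mavs or Ciita. For the lists as a whole, r without that array is not given.

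None of these listed genes was called between diets (0% of all genes called in each limma comparison). Between HFC and LFC, the largest difference among the other interferon-stimulated genes was 1.52 for Oasl1 (SE 0.73, limma adjusted p = 0.803), and the median of the 56 was 0.01. The median was -0.05 for 14 sensors and -0.53 for 9 type I interferon genes, beside -0.04 over all genes. LFC Week 18, the array with the lowest 75th percentile, had the highest level of 4 of these ligands, Ifna2, Ifna7, Ifna9 and Ifna14. Ifih1, the gene of the RNA sensor MDA5, differed by 0.97 (unadjusted p = 0.0316 and adjusted p = 0.803 in limma), and Cxcl10 by 0.50 (SE 0.74). Over the weeks, 5 of 56 other interferon-stimulated genes were called: Znfx1 (adjusted p = 0.00925), Parp10 (0.0196), Ube2l6 (0.0255), Oasl1 (0.0322) and Ifi27l2a (0.0340), all by limma. So were 2 of 24 receptor and signalling genes, Ifnar1, a chain of the type I interferon receptor (adjusted p = 0.0148 in limma), and Tbk1, a kinase upstream of Irf7 (0.0256). These shares, 5 of 56 and 2 of 24, stand beside the 12% called over all genes. No gene of the ligand, sensor or interferon-gamma lists was called over the weeks.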

How the data were processed

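Total RNA of subcutaneous adipose tissue was hybridised with Cy3 on 1-colour Agilent arrays. The authors extracted spot signals with Agilent Feature Extraction (9.1 per the labels, 10.5.1.1 per the file headers), and the deposited files hold processed intensity values, background-subtracted by that program. A deposited table of log2 ratios, which the authors made in GeneSpring GX against the matching LFC array, was used as an alternative. The intensities of Week 9 were deposited rounded.

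Levels were log2 intensities minus the log2 75th percentile of the array, without control and outlier spots. The probe with the highest mean level stood for a gene. Genes well above background on at least 10 arrays (LFC and HFC, 20 arrays) or 6 arrays (Weeks 3 to 18, 30 arrays) were tested with limma 3.58.1 in R 4.3.3, two-sided, with time point as a block for diets and diet as a block for weeks, at a Benjamini-Hochberg adjusted p of 0.05. The fit was tested on simulated data. The number of arrays limits the precision. Arrays came from 14 scan days and 36 slides. Genes named beside the 9 were the 10 with the highest r to their mean, and up to 3 per pathway list or all of the few called. The 9 genes and the lists were chosen with earlier results of these data known. Alternatives were normexp background correction, quantile scaling, other filters, other probe rules, scan day or slide as a block, array weights, a variance trend, the deposited ratios and leaving out arrays or time points.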

Additional observations from a re-analysis of the deposited data

Results flagged for a closer look

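The levels of each gene in LFC, HF5, HF20 and HF75, 36 groups of 6 to 10 arrays, were searched for an array whose gap to the nearest other array exceeded Dixon's critical value at 95%. There were 4, where chance gives about 1 in 20 groups. In HF75, Week 3 was far below the other 5 arrays for Isg15 (level -1.64, nearest 1.54), Rsad2 (-2.92, nearest 1.93) and Usp18 (-1.70, nearest -0.01). These 3 values come from the same array. In LFC, Mx1 was at 4.95 in Week 18, where the nearest array was at 0.00, on the array with the lowest 75th percentile of intensity, 107.9. HFC, with 11 arrays, was not searched.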

How the results depend on the processing

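No gene of the 9 was called between diets under any alternative run, with 1 exception: under normexp background correction, which called 7872 genes in HF20 against HFC where limma otherwise called 0, Mx1 was called (log2 difference 2.63, adjusted p = 0.0299), 1 of the 9. Of 1180 differences of the 9 genes under the alternatives, 82 changed sign and 27 moved by more than 1 standard error. Ifit1, Rsad2 and Mx1 between HFC and LFC, and all 9 genes but Irf7 between HF75 and HFC, kept their sign under the alternatives run. Their sizes did not hold. With array weights the 9 genes ran from -0.64 to 0.17 between HFC and LFC, where the main fit ran from -1.56 to 0.99. The median between HF75 and HFC was then -0.43, against -0.93 in the main fit. For the weeks, 2532 genes were called, and 655 under normexp, 1538 without a filter, 1031 with slide as a random block, 12039 with array weights and 35 (without Week 6) to 3578 (without Week 12) with each week left out. The 9 genes called over the weeks numbered 0 under normexp, quantile scaling, no filter, slide as a block, array weights and without HF75 Week 3, and 0 to 1 with each week left out. The adjusted p of Rsad2 over the weeks was 0.0840 under normexp, 0.0552 under quantile scaling, 0.0677 without a filter, 0.0797 with slide as a block, 0.0550 with array weights, 0.0909 without HF75 Week 3, and 0.0288 (without Week 12) to 0.277 (without Week 3) with each week left out. For the 10 time points, 11 genes were called, and 1 under normexp, 26 under quantile scaling, 0 without a filter, 3 with a filter on every array, 6 with a trend, 1640 with array weights, and 0 to 2374 (without Week 12) with each left out, when 0 to 1 of the 9 was called, Rsad2 at 0.0421 without Week 12. Normexp moved the median of all genes by 0.30 in HF20, 0.21 in HF75 and -0.11 in HFC against LFC, and the values of the 9 genes are read relative to these shifts. The cause of these changes was not tested. Slide as a random block could not be fitted for LFC and HFC. Time point as the block pairs the diets, and replicate numbers follow accession order and pair nothing further. Mx1 is limited by readings near background.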
